A study of Homo sapiens with 28 samples.

Results

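The 32 genes described here are listed as targets of p53, the transcription factor that answers DNA damage and other stress. They were followed across an array screen in which RNA-processing and chromatin factors were knocked down. The choice was by name, as genes held to be switched on by p53, and how strong that link is for each member was not examined. Earlier results of these data were known when the choice was made. Each was read as the log2 intensity of the brightest array probeset that carries exactly 1 gene symbol. Of the 32 genes, 30 were measured, each by a single probeset, among 18417 genes in all. BTG2 and FDXR were not analysed here. HEK293 cells, a human embryonic kidney line, received lentiviral vectors in which U6 drives a silencing hairpin, and were kept in puromycin at 2 µg/ml for 6 days and profiled on Human Gene ST1.0 arrays. In the first array series the hairpins were against CLP1 (a kinase of the 3′ end processing machinery), the RNA helicases DDX5 and DDX17, or HNRNPL (an RNA-binding protein), with 3 hairpins each, and CPSF6 (a cleavage factor) with 1. In the second series they were against PARP1, PRKDC, PABPC1 (a poly(A)-binding protein) or SUPT16H (a subunit of the FACT histone chaperone), again with 3 hairpins each. PARP1 is a poly(ADP-ribose) polymerase that senses DNA breaks, and PRKDC is the kinase subunit of DNA-PK, which acts in joining broken ends. The control in all comparisons with untargeted cells was a hairpin against bacterial lacZ, with 1 array in the first series and 2 in the second. All arrays share the cell line, the vector and the selection drug, and every knockdown array carries a different hairpin sequence.

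In an unstressed cell p53 is kept scarce by MDM2, a ubiquitin ligase that is itself a p53 target, so that the pathway restrains its own activity. When DNA is damaged, kinases free p53 from MDM2, and the protein binds response elements near its targets and switches on genes of cell cycle arrest, DNA repair, apoptosis, metabolism and feedback. HEK293 cells carry adenovirus genes, among them E1B, whose larger product binds p53 and represses its activity as a transcription factor, which limits this line as a model of the pathway.

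A p53 response element is a pair of adjacent parts of like sequence, each with a core that starts with C and ends with G. To show where such sequence lies next to the genes that the results below turn on, RefSeq promoter windows were searched. They run, on GRCh38.p14, from 250 bases before to 50 after a start site. The search asked for a pair with no spacer and at most 3 of the 20 bases off the consensus. Each core had to start with C and end with G, while its inner bases could be off, as in MDM2, DDB2 and PMAIP1. The consensus reads the same on both strands. Of the 30 measured genes 23 had a window, and 6 of these (26.1%) held an element, against 1.37% of all genes in the table and 1.12% of its windows. The 6 sites follow, 5′ to 3′ on the strand of the gene, with the 4 core bases of each part in capitals.
MDM2: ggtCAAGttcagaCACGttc
SESN1: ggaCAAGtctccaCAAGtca
DDB2: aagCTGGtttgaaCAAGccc
FAS: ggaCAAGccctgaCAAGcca
AEN: gggCTTGcccgggCATGtgg
PMAIP1: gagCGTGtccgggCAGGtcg
The DDB2 site (chr11:47214969-47214988, plus strand) was the closest to the consensus, with 1 base off, and started 5 bases before the start site. The MDM2 site (chr12:68808923-68808942, plus strand), the FAS site (chr10:88991309-88991328, plus strand) and the AEN site (chr15:88621306-88621325, plus strand) had 2 bases off. The SESN1 site (chr6:109009018-109009037, minus strand) and the PMAIP1 site (chr18:59899811-59899830, plus strand) had 3. A match is a stretch of letters, not evidence of binding in these cells. The members were picked as p53 targets, so their higher share is no finding about these data. Elements outside the windows were not searched.

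Several features of the arrays touch the values that follow. First-series arrays had median intensities of 61.5 to 74.0 and second-series arrays of 54.5 to 58.3, so levels were compared within a series only. The first lacZ array of the second series held the values of the first-series lacZ array on another scale (their difference had an SD of 0.063 over genes), so there were 2 distinct lacZ arrays in all. DDX5 hairpin 3 and PRKDC hairpin 3 stood apart from the other hairpins of their gene, with an SD over genes of up to 0.758 and 0.403, against 0.19 between PRKDC hairpins 1 and 2. HNRNPL hairpin 3 stood apart to a like degree, with an SD of 0.391 and 0.379, against 0.173 between HNRNPL hairpins 1 and 2. PARP1 itself was at 8.66, 8.79 and 9.02 in PARP1 knockdown, against 9.88 and 10.12 in lacZ, a difference of −1.18 (SE 0.18, adjusted p = 0.000258). PRKDC itself was at 7.24, 7.37 and 7.08 in PRKDC knockdown, against 9.66 and 9.32 in lacZ, a difference of −2.26 (SE 0.23, adjusted p = 1.26e-06). Of 5 markers of the line (KRT8, KRT18, VIM, NEFL and NEFM) 4 lay above the median gene, as did 0 of 4 blood, 1 of 5 fibroblast, 0 of 4 keratinocyte and 0 of 3 hepatocyte markers. Over both series together, the summed log2 level of the markers of the line was 11.12 to 12.29 in knockdown arrays and 12.25 to 12.54 in lacZ arrays. These ranges mix the series and give no difference within one: the shared lacZ array differed by a mean of −0.329 between them, second minus first. The part of the marker level in the differences from lacZ was not tested. The labels do not say whether arrays came from separate cultures. Each p-value reflects the spread among the arrays of this screen alone, and part of that spread may be technical. The arrays of a target carry different hairpins, so the spread also includes differences between hairpins, which the single lacZ hairpin cannot show. Unless stated otherwise, the spread was pooled over both series in a single fit, DDX5 hairpin 3 included, and not taken from the compared arrays alone.

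**Figure D1:**
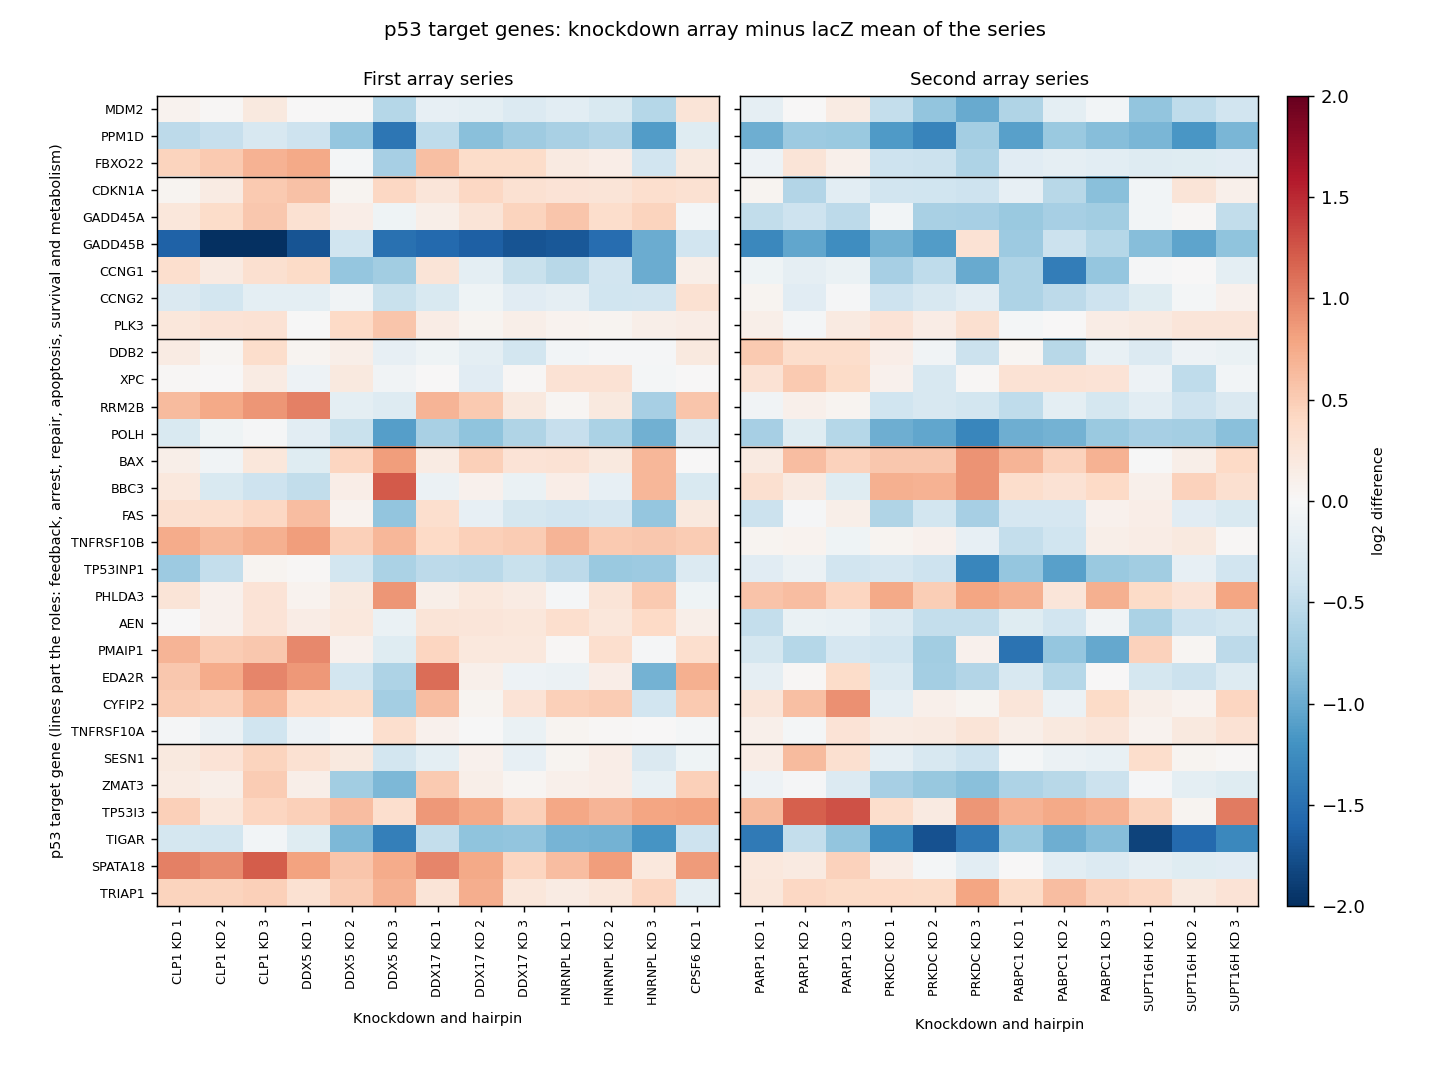
Log2 difference of each knockdown array (columns, named by gene and hairpin) from the lacZ mean of its series, for the 30 measured p53 target genes (rows, grouped by role), with red for higher and blue for lower and the colours ending at a difference of 2 either way. GADD45B, PPM1D and TIGAR are mostly blue, TP53I3 is red in every column, and DDX5 hairpin 3 differs from DDX5 hairpins 1 and 2 over many rows.

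PARP1 knockdown and PRKDC knockdown can be set against each other inside the second series without use of lacZ. The p53 target genes were mostly higher in PARP1 knockdown: 21 of the 30 had a positive difference and 9 a negative one, and the median difference was 0.35 on the log2 scale, against −0.04 over all genes. Of the 30 members 26 lay above the median gene, so all genes are not a reference of like intensity here or below. The 24 measured regulators of p53 (17 positive, 7 negative) had a median of 0.22. So did 14 cell cycle genes that p53 represses (11 positive, 3 negative), while 26 further p53 targets had one of 0.01. Whether the shift is particular to the members was not tested. At an adjusted p under 0.05, the threshold for a call throughout, MDM2 and SESN1 were higher in PARP1 knockdown and none was lower, so that 2 of 30 members (6.67%) were called, beside 2.88% of all genes. At an unadjusted p under 0.05, 13 of 30 members were counted, beside 31.3% of all genes. For 12 members (40%) every PARP1 array lay above every PRKDC array, beside 19.5% of all genes, and for 1 member (3.33%), BBC3, every PARP1 array lay below, beside 23.2%. Without PRKDC hairpin 3 these counts were 15 members, beside 29.9% of all genes, and 1 member, beside 28.5%. The lower count was 4 without PARP1 hairpin 2, beside 27.6% of all genes, 4 without PRKDC hairpin 2, beside 30.3%, and 3 without PARP1 hairpin 3, beside 25.6%. The number of calls depended on the arrays that entered the spread: with the second series fitted alone 11 members were called (10 higher and 1 lower), beside 26.1% of all genes. Leaving out any 1 of the 6 arrays left 0 or 1 call, beside 0.109% to 3.17% of all genes, and the median stayed between 0.27 and 0.38.

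**Figure D2:**
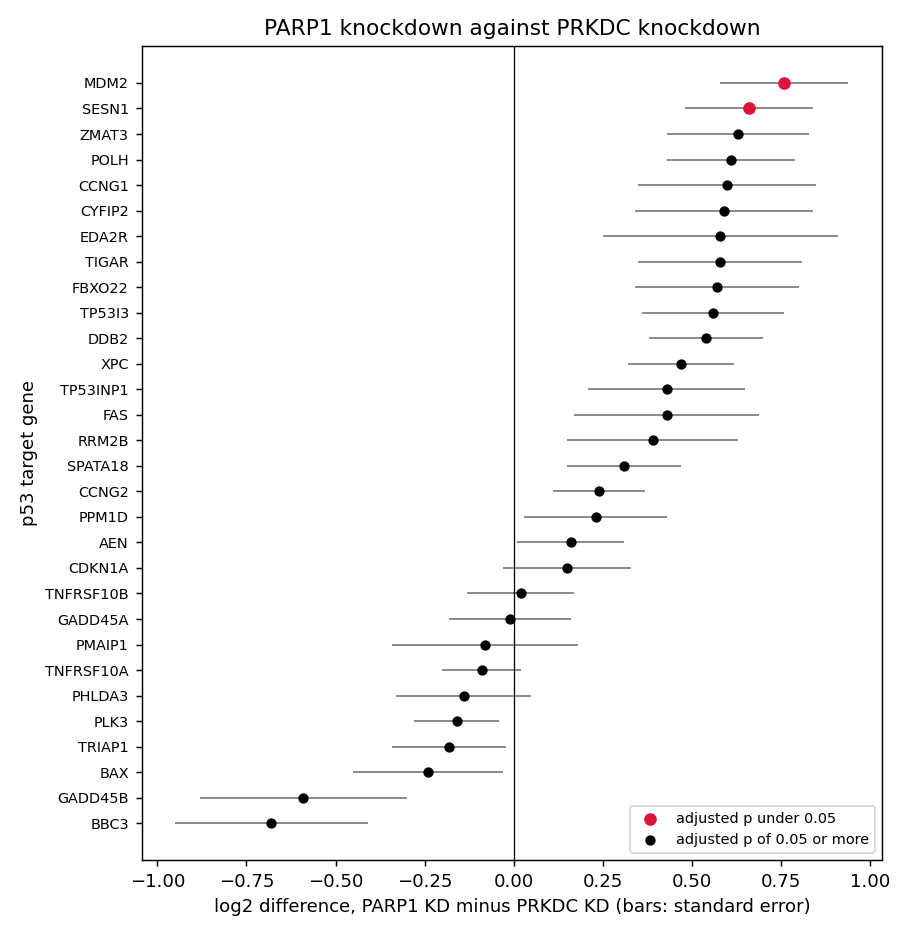
Log2 difference of PARP1 knockdown minus PRKDC knockdown for the 30 p53 target genes, sorted by size, with bars of 1 standard error. MDM2 (0.76) and SESN1 (0.66), in red, are the 2 calls, and BBC3 (−0.68) has the lowest value.

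Among the genes of feedback on p53, MDM2 differed most. MDM2 was at 9.06, 9.25 and 9.40 in PARP1 knockdown, against 8.76, 8.45 and 8.22 in PRKDC knockdown, a difference of 0.76 (SE 0.18, adjusted p = 0.0349). The groups did not overlap, and the lacZ arrays, at 9.35 and 9.12, lay among the PARP1 arrays. The call was lost without PARP1 hairpin 2 (adjusted p = 0.105), PARP1 hairpin 3 (0.163) or PRKDC hairpin 3 (0.115), while the difference stayed between 0.57 and 0.90 in all 14 alternatives. PPM1D, a phosphatase that removes activating phosphates from p53 and its kinases, was at 6.99, 7.24 and 7.22 in PARP1 knockdown, against 6.83, 6.64 and 7.28 in PRKDC knockdown (0.23, SE 0.20, adjusted p = 0.413), with overlapping groups. FBXO22, the substrate receptor of a ubiquitin ligase, had a difference of 0.57 (SE 0.23, adjusted p = 0.11), and its PARP1 arrays lay above its PRKDC arrays.

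All 4 repair genes had positive differences between PARP1 and PRKDC knockdown, with a median of 0.50, and none was called. DDB2, which recognises ultraviolet damage, was at 8.33, 8.16 and 8.15 in PARP1 knockdown, against 7.93, 7.74 and 7.37 in PRKDC knockdown (0.54, SE 0.16, adjusted p = 0.0556). Its PARP1 arrays were also above the 2 lacZ arrays, at 7.79 and 7.82. POLH, a polymerase that copies past damaged bases, was at 6.91, 7.32 and 7.00 in PARP1 knockdown, against 6.59, 6.53 and 6.26 in PRKDC knockdown (0.61, SE 0.18, adjusted p = 0.0574). Both POLH groups lay below the lacZ arrays, at 7.61 and 7.53. XPC, a damage sensor of nucleotide excision repair, had a difference of 0.47 (SE 0.15, adjusted p = 0.0636), and RRM2B, a subunit of ribonucleotide reductase, of 0.39 (SE 0.24, adjusted p = 0.252). For each of the 4 genes every PARP1 array lay above every PRKDC array, which also held for 19.5% of all genes.

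Of the 6 genes of survival and metabolism 5 had positive differences, with a median of 0.57 over the 6. SESN1, a stress-induced inhibitor of mTORC1 signalling, was at 7.92, 8.40 and 8.09 in PARP1 knockdown, against 7.60, 7.46 and 7.36 in PRKDC knockdown, a difference of 0.66 (SE 0.18, adjusted p = 0.0486). The groups did not overlap, while the lacZ arrays, at 8.04 and 7.51, were spread over both. The SESN1 call was lost when any 1 of the 6 arrays was left out (adjusted p = 0.0573 to 0.163). ZMAT3, an RNA-binding zinc finger protein, was at 7.34, 7.42 and 7.16 in PARP1 knockdown, against 6.77, 6.68 and 6.60 in PRKDC knockdown (0.63, SE 0.20, adjusted p = 0.067), again without overlap. TP53I3, an enzyme related to quinone oxidoreductases, was at 6.42, 6.99 and 7.07 in PARP1 knockdown, against 6.15, 5.97 and 6.68 in PRKDC knockdown (0.56, SE 0.20, adjusted p = 0.089), and the groups overlapped. TIGAR, a phosphatase that lowers glycolytic flux, was at 6.35, 7.29 and 6.98 in PARP1 knockdown, against 6.51, 6.03 and 6.34 in PRKDC knockdown (0.58, SE 0.23, adjusted p = 0.111). TIGAR overlapped because PARP1 hairpin 1 lay below PRKDC hairpin 1. SPATA18, a factor of mitochondrial quality control, had a difference of 0.31 and TRIAP1, an inhibitor of apoptosis, of −0.18, with adjusted p = 0.18 and 0.417.

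The 11 genes of apoptosis had no common direction: 6 differences were positive and 5 negative, with a median of 0.02. BBC3 (PUMA), a BH3-only activator of mitochondrial death, was at 6.93, 6.78 and 6.37 in PARP1 knockdown, against 7.31, 7.30 and 7.51 in PRKDC knockdown (−0.68, SE 0.27, adjusted p = 0.107). It was the member whose PARP1 arrays all lay below its PRKDC arrays, and its lacZ arrays, at 6.54 and 6.67, were below all PRKDC arrays too. BAX, the pore-forming effector, was at 7.83, 8.26 and 8.11 in PARP1 knockdown, against 8.18, 8.18 and 8.55 in PRKDC knockdown (−0.24, adjusted p = 0.406). PHLDA3, which restrains AKT signalling, was at 6.54, 6.58 and 6.40 in PARP1 knockdown, against 6.72, 6.46 and 6.75 in PRKDC knockdown (−0.14, adjusted p = 0.6). TP53INP1, a nuclear cofactor of p53-driven death, was at 6.43, 6.54 and 6.27 in PARP1 knockdown, against 6.33, 6.25 and 5.36 in PRKDC knockdown (0.43, adjusted p = 0.172), with PRKDC hairpin 3 the low one. These 3 genes overlapped between the groups. CYFIP2 (0.59, adjusted p = 0.12), an actin regulator, and EDA2R (0.58, 0.221), a death receptor of ectodysplasin, were higher in every PARP1 array. The death receptor FAS had a difference of 0.43 (0.24), the nuclease AEN of 0.16 (0.431), the BH3-only protein PMAIP1 of −0.08 (0.829), and the receptors of the ligand TRAIL, TNFRSF10A and TNFRSF10B, of −0.09 and 0.02 (0.565 and 0.944). Of the 6 genes whose windows held an element, MDM2, SESN1, DDB2 and FAS had differences of 0.43 to 0.76, and AEN and PMAIP1 of 0.16 and −0.08. Genes with a window but no element also had large differences, such as CYFIP2 (0.59), EDA2R (0.58) and BBC3 (−0.68). Whether the difference goes with an element was not tested.

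The 6 genes of cell cycle arrest were likewise split, with 3 positive and 3 negative differences and a median of 0.07. CDKN1A (p21), the inhibitor of cyclin-dependent kinases and the best known p53 target, was at 7.55, 6.91 and 7.29 in PARP1 knockdown, against 7.12, 7.10 and 7.09 in PRKDC knockdown (0.15, SE 0.18, adjusted p = 0.55). Its PARP1 arrays spread above and below the 3 close PRKDC arrays. CCNG1 (cyclin G1, a partner of phosphatase 2A) was at 9.56, 9.46 and 9.50 in PARP1 knockdown, against 8.98, 9.13 and 8.63 in PRKDC knockdown (0.60, SE 0.25, adjusted p = 0.115), without overlap. GADD45B, a stress sensor that binds MAP kinase kinases, was at 7.49, 7.75 and 7.54 in PARP1 knockdown, against 7.84, 7.67 and 9.07 in PRKDC knockdown (−0.59, SE 0.29, adjusted p = 0.16). Here PRKDC hairpin 3 stood alone, above the other 2 PRKDC hairpins and above the lacZ arrays. The cyclin CCNG2 had a difference of 0.24 (adjusted p = 0.196), the stress sensor GADD45A of −0.01 (0.961) and the kinase PLK3 of −0.16 (0.343).

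**Figure D3:**
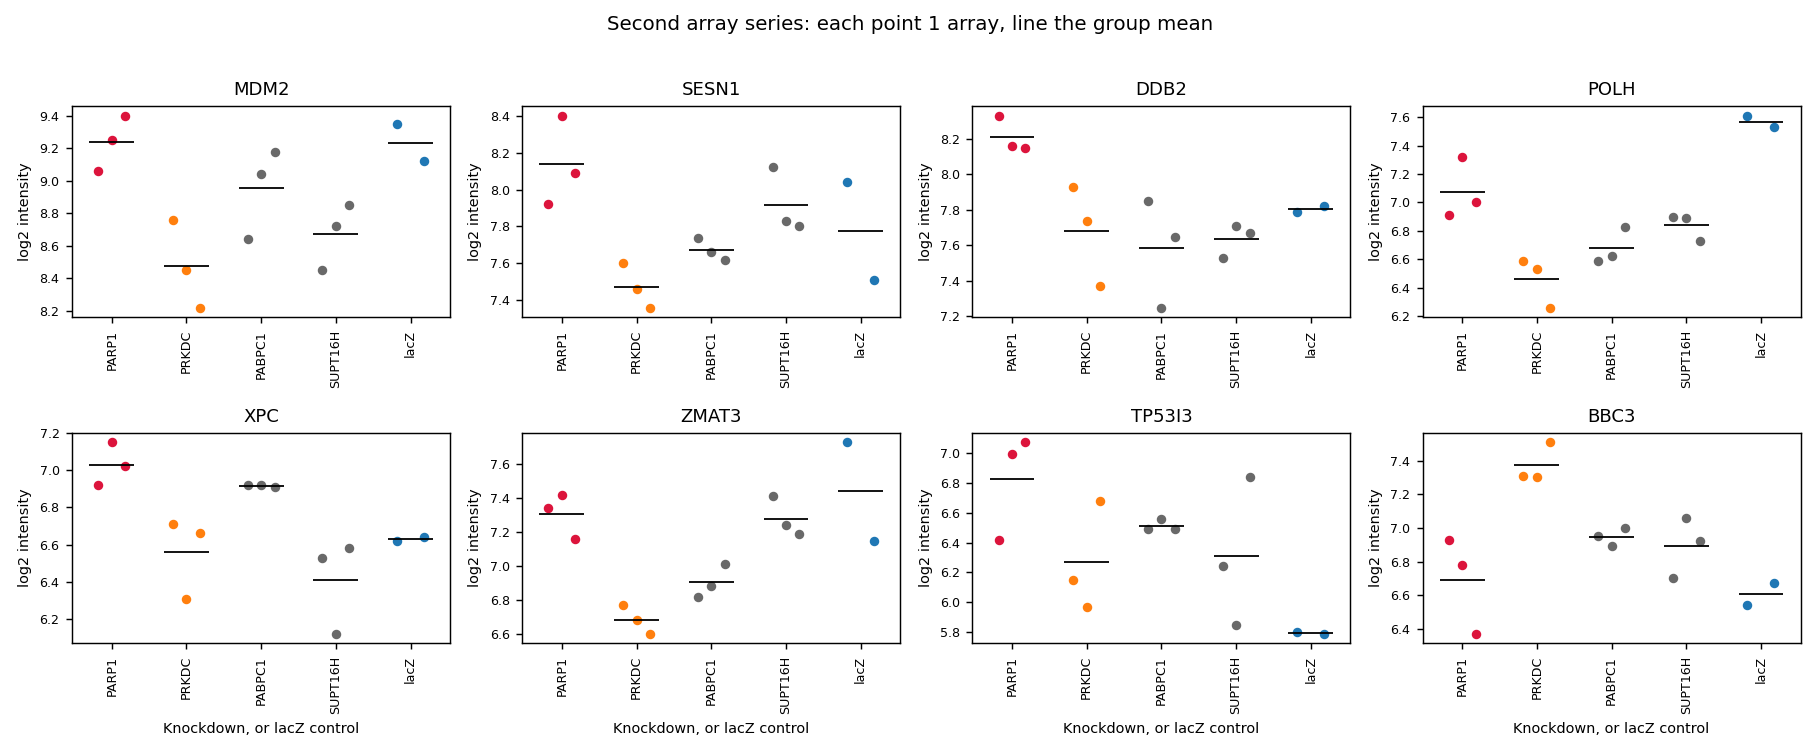
Log2 intensity of the 8 p53 target genes with the smallest p between PARP1 and PRKDC knockdown, in every array of the second series (points) with group means (lines). In each of MDM2, SESN1, DDB2, POLH, XPC and ZMAT3 the 3 PARP1 points lie above the 3 PRKDC points, in BBC3 they lie below, and in TP53I3 they overlap. The genes were chosen by that p, so their separation is no further evidence. Every PARP1 array lay above every PRKDC array for 19.5% of all genes, and below for 23.2%.

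Against lacZ, PARP1 knockdown left the p53 target genes as a whole near the level of the controls and moved a few of them. The median difference was 0.02, against 0.04 over all genes, and 17 of 30 differences were positive. TP53I3 rose, GADD45B, TIGAR and PPM1D fell, and these 4 of 30 (13.3%) stood beside 5.44% of all genes. TP53I3 was higher by 1.03 (SE 0.23, adjusted p = 0.00771), with the 2 lacZ arrays at 5.80 and 5.79, below all PARP1 arrays given above. GADD45B differed by −1.19 (SE 0.32, adjusted p = 0.0291) with lacZ at 8.71 and 8.86, TIGAR by −0.89 (SE 0.26, adjusted p = 0.0443) with lacZ at 8.00 and 7.53, and PPM1D by −0.81 (SE 0.23, adjusted p = 0.0352) with lacZ at 8.06 and 7.86. No PARP1 array of these 4 called genes fell within the range of the lacZ arrays, and the share of all genes so placed was not counted. In all 8 knockdowns with 3 hairpins TP53I3 was higher than lacZ, and GADD45B, TIGAR and PPM1D were lower. With lacZ replicate 2 or 3 left out the median was 0.13 and −0.11 and no member was called, beside 1.06% and 2.18% of all genes, with PARP1 hairpin 1, 2 or 3 left out 1, 2 and 1 members were, beside 2.91%, 3.01% and 3.30%, and TP53I3 was among the calls in each of the fits without a PARP1 hairpin.

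Against lacZ, PRKDC knockdown gave lower values of most p53 target genes. The median difference was −0.34, against 0.10 over all genes, 23 of 30 differences were negative, and the median was below that of all genes in each of the 3 hairpins (−0.28, −0.34 and −0.39, against 0.07, 0.06 and 0.15). The test called 10 members (33.3%), 7 lower and 3 higher, beside 35.7% of all genes, so that the share of members called was near that of all genes. TIGAR fell by 1.47 (SE 0.26, adjusted p = 0.000731), POLH fell by 1.11 (SE 0.20, adjusted p = 0.000917) and PPM1D fell by 1.04 (SE 0.23, adjusted p = 0.00308). For these 3 genes, named for their small p, all PRKDC arrays were below both lacZ arrays. The share of all genes that meets this rule was not counted. MDM2 (−0.75, adjusted p = 0.0097), ZMAT3 (−0.76, 0.0152; lacZ at 7.73 and 7.15), CCNG1 (−0.73, 0.0415; lacZ at 9.76 and 9.52) and TP53INP1 (−0.68, 0.0335; lacZ at 6.66 and 6.66) fell as well. The risers were PHLDA3 (0.68, adjusted p = 0.0174) with lacZ at 5.92 and 6.01, BAX (0.66, 0.0314) with lacZ at 7.48 and 7.81, and TRIAP1 (0.52, 0.0256). TRIAP1 was at 8.71, 8.69 and 9.10 in PRKDC knockdown, against 8.25 and 8.37 in lacZ. PHLDA3, BAX and TRIAP1 were higher than lacZ in all 8 knockdowns with 3 hairpins, and TIGAR, POLH, PPM1D and TP53INP1 were lower. MDM2, ZMAT3 and CCNG1 were lower in 6, 5 and 7 of the 8. Whether these moves are particular to PRKDC knockdown was not tested. Without lacZ replicate 2 the median was −0.16 and the calls were TIGAR and POLH alone, beside 2.70% of all genes, and without lacZ replicate 3 they were 5 members, namely these 2, MDM2, ZMAT3 and PPM1D, beside 15.1%. Without PRKDC hairpin 3 they were 7, beside 26.6% of all genes, in which BAX (adjusted p = 0.101), TRIAP1 (0.0953), CCNG1 (0.127) and TP53INP1 (0.192) were lost and GADD45B entered. Without PRKDC hairpin 1 CCNG1 was lost (0.0667) and GADD45A entered. The markers of other cell types were read in the same comparison. All 4 blood, 5 fibroblast, 4 keratinocyte and 3 hepatocyte markers had positive differences in PRKDC knockdown against lacZ. Their medians were 0.17, 0.23, 0.31 and 0.12. HBB (0.40), PDGFRB (0.49), KRT14 (0.55) and APOA1 (0.49) were called higher. These are 25%, 20%, 25% and 33.3% of their lists, each under the 35.7% of all genes called. In SUPT16H knockdown all blood, fibroblast and keratinocyte markers were positive too, with medians of 0.18, 0.25 and 0.32, as were 2 of 3 hepatocyte markers. Of the 5 markers of the line NEFL (20% of the list) was called lower (−1.89, adjusted p = 7.92e-05), and their median was −0.29. NEFL was also called lower against lacZ in PARP1 (−1.57), PABPC1 (−2.04), SUPT16H (−1.19) and DDX17 knockdown (−1.46). The part of these shifts in the values of the p53 target genes was not tested.

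PABPC1 knockdown and SUPT16H knockdown were set against the same lacZ arrays. Of the members called in either, POLH, PPM1D, TIGAR, TP53INP1 and CCNG2 were lower than lacZ in all 8 knockdowns with 3 hairpins. CCNG1 was lower in 7 of the 8, and GADD45A and PMAIP1 in 4. In PABPC1 knockdown the median difference was −0.24, against 0.04 over all genes, and 7 of 30 members (23.3%) were lower and none higher, beside 5.76% of all genes called. Of the arrest genes CCNG1 fell by 0.93 (SE 0.28, adjusted p = 0.0456), GADD45A fell by 0.70 (SE 0.19, 0.0295) and CCNG2 fell by 0.52 (SE 0.15, 0.0373). Of the apoptosis genes PMAIP1 fell by 1.09 (SE 0.29, 0.0268) and TP53INP1 fell by 0.87 (SE 0.24, 0.0332). The repair gene POLH fell by 0.89 (SE 0.20, 0.0106), and so did PPM1D (SE 0.23, 0.022). PMAIP1 was at 8.40, 9.09 and 8.85 in PABPC1 knockdown, against 9.98 and 9.76 in lacZ. None of these 7 calls was left without lacZ replicate 2 or 3, beside 0.603% and 2.12% of all genes. Without PABPC1 hairpin 1, 2 or 3 there were 2, 3 and 1 calls, POLH in each, beside 3.06%, 3.23% and 2.39%. In SUPT16H knockdown the median was −0.14 (0.02 without lacZ replicate 2), against 0.07 over all genes, and 3 of 30 members (10%) were lower and none higher, beside 9.53% of all genes. TIGAR fell by 1.57 (SE 0.26, adjusted p = 0.000616), with 5.92, 6.21 and 6.47 in SUPT16H knockdown, against 8.00 and 7.53 in lacZ. PPM1D fell by 1.0 (SE 0.23, 0.00867) and POLH fell by 0.73 (SE 0.20, 0.0263). Without lacZ replicate 2 no member was called, beside 0.966% of all genes (TIGAR adjusted p = 0.0503, PPM1D 0.155), and POLH was lost without lacZ replicate 3 (0.101) or SUPT16H hairpin 2 (0.0624) or 3 (0.0736).

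**Figure D4:**
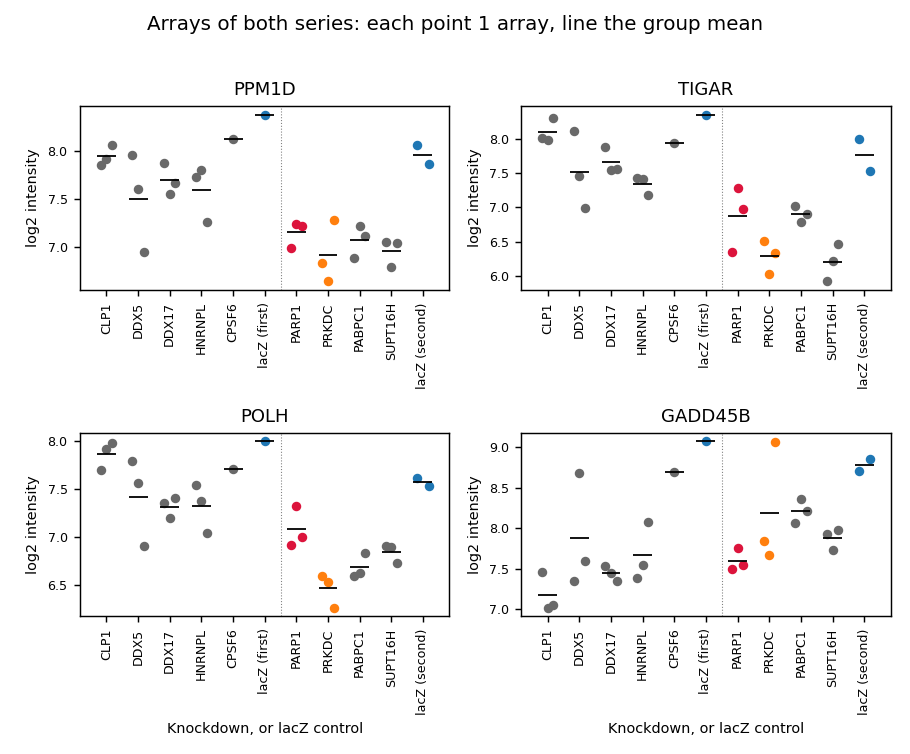
Log2 intensity of PPM1D, TIGAR, POLH and GADD45B in every array (points) with group means (lines), the first series left of the dotted line and the second right of it, lacZ last in each. In the second series the PPM1D, TIGAR and POLH points of all 4 knockdowns lie below both lacZ points, whereas PRKDC hairpin 3 reaches 9.07 for GADD45B, above lacZ. The share of all genes placed below lacZ in this way was not counted.

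Each knockdown of the second series was also set against the mean of the other 3, which leaves lacZ out. PARP1 knockdown had a median member difference of 0.29, against −0.01 over all genes, with 22 of 30 positive. DDB2 was the member called (3.33%, beside 0.554% of all genes), with a mean of 8.21 in PARP1 knockdown, against 7.63 in the other knockdowns (0.58, SE 0.13, adjusted p = 0.0408). The call was lost without PARP1 hairpin 1 (adjusted p = 0.14), 2 (0.171) or 3 (0.219), and with arrays quantile normalized together (0.0743) or centred on their medians (0.0568). At an unadjusted p under 0.05, 15 of 30 members were counted, beside 18.6% of all genes, next in order MDM2 (0.53, adjusted p = 0.0927) and XPC (0.40, 0.114). By group mean PARP1 knockdown was the highest of the 4 knockdowns for 15 of 30 members, beside 26.7% of all genes, and the lowest for 3, beside 32.1%. PRKDC knockdown had a median of −0.15, against 0.04, and 0 members called in limma, beside 0.0869% of all genes. MDM2 (−0.48, adjusted p = 0.121) and SESN1 (−0.44, 0.126) came first, and 5 of 30 members were under an unadjusted p of 0.05, beside 24.5% of all genes. PABPC1 knockdown also had 0 calls, beside 0.0869% of all genes, with 9 members under an unadjusted p of 0.05, beside 10.3%, led by PMAIP1 (−0.84, adjusted p = 0.0923) and CCNG2 (−0.37, 0.153). SUPT16H knockdown had 0 calls, beside 0.0109%, with 8 members under an unadjusted p of 0.05, beside 8.98%, led by XPC (−0.43, adjusted p = 0.234) and CDKN1A (0.49, 0.286). CDKN1A was at 7.44, 7.76 and 7.60 in SUPT16H knockdown, a mean of 7.60, against 7.11 in the other knockdowns.

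In the first series the single lacZ array limits what can be said of each knockdown. CLP1 knockdown had the highest member median against lacZ, 0.25, against 0.00 over all genes, with 22 of 30 differences positive. SPATA18 was at 7.02, 6.95 and 7.22 in CLP1 knockdown, against 6.01 in lacZ, and rose by 1.05 (SE 0.22, adjusted p = 0.0193). GADD45B was at 7.46, 7.02 and 7.05 in CLP1 knockdown, against 9.08 in lacZ, and fell by 1.90 (SE 0.41, adjusted p = 0.0193). These were the 2 calls (6.67%), beside 0.956% of all genes. GADD45B was lost without CLP1 hairpin 2 (0.0628) or 3 (0.0647) and SPATA18 without hairpin 3 (0.0709). In DDX17 knockdown GADD45B was at 7.53, 7.45 and 7.35, against the same 9.08 in lacZ (−1.63, SE 0.41, adjusted p = 0.026), the only call among the members (3.33%), beside 2.77% of all genes. It was lost without DDX17 hairpin 2 (0.065) or 3 (0.0638), and SPATA18 was called instead without hairpin 3 (0.0462). The member median of DDX17 knockdown was 0.13, against 0.00 over all genes.

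No member was called against lacZ in DDX5 or HNRNPL knockdown with limma. DDX5 knockdown had 0 calls, beside 0.842% of all genes, and 7 members under an unadjusted p of 0.05, beside 11.4%. TNFRSF10B (0.66, adjusted p = 0.159) and SPATA18 (0.70, 0.168) had the smallest p. The DDX5 hairpins did not run together: the member median against lacZ was 0.13 and 0.08 in hairpins 1 and 2 and −0.26 in hairpin 3. BBC3 was at 6.34, 6.98 and 8.06 and EDA2R at 7.60, 6.37 and 6.13 in DDX5 knockdown, against 6.84 and 6.74 in lacZ. Hairpin 1 was thus the low one for BBC3 and the high one for EDA2R. Without DDX5 hairpin 1, TIGAR and PPM1D were called lower than lacZ, beside 3.40% of all genes, and without hairpin 2 GADD45B was, beside 1.01%. HNRNPL knockdown had 0 calls, beside 1.84% of all genes, and 8 members under an unadjusted p of 0.05, beside 13.2%, led by GADD45B (−1.40, adjusted p = 0.0779) and TIGAR (−1.01, 0.133). Its member median was 0.03, against −0.01 over all genes. By hairpin the median was 0.05, 0.14 and −0.09, and without HNRNPL hairpin 3 it was 0.10, with 0 calls (lowest adjusted p = 0.054), beside 1.36% of all genes.

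Among themselves, the first-series knockdowns differed in no called member, but CLP1 knockdown lay to one side. It had 0 calls against the other 3, beside 0.722% of all genes, a median of 0.20, against 0.01 over all genes, and 15 of 30 members under an unadjusted p of 0.05, beside 17.3%. POLH was at 7.70, 7.92 and 7.98 in CLP1 knockdown, a mean of 7.87, against 7.35 in the other knockdowns (0.52, SE 0.15, adjusted p = 0.0932), and CCNG1 had a difference of 0.65 (0.115). DDX5 knockdown had 0 calls, beside 0.038% of all genes, and 1 member under an unadjusted p of 0.05, beside 9.20%, which was ZMAT3 (−0.66, adjusted p = 0.214), followed by GADD45B (0.44, 0.53). Without DDX5 hairpin 1 there were 7 calls, beside 17.2% of all genes, so the count depended on 1 array. Leaving that array out changes both the DDX5 mean and the pooled spread, and their parts were not separated. DDX17 knockdown had 0 calls, beside 0.874%, and 0 members under an unadjusted p of 0.05, beside 11.7%, with DDB2 (−0.26, adjusted p = 0.428) and ZMAT3 (0.29, 0.528) first. HNRNPL knockdown had 0 calls, beside 0.0977%, and 6 members under an unadjusted p of 0.05, beside 8.53%, with RRM2B (−0.61, adjusted p = 0.333) and CCNG1 (−0.57, 0.417) first. The CPSF6 array has no replicate and was not tested: 18 of 30 members lay above the first-series lacZ array, and the median difference was 0.13, against −0.02 over all genes.

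**Figure D5:**
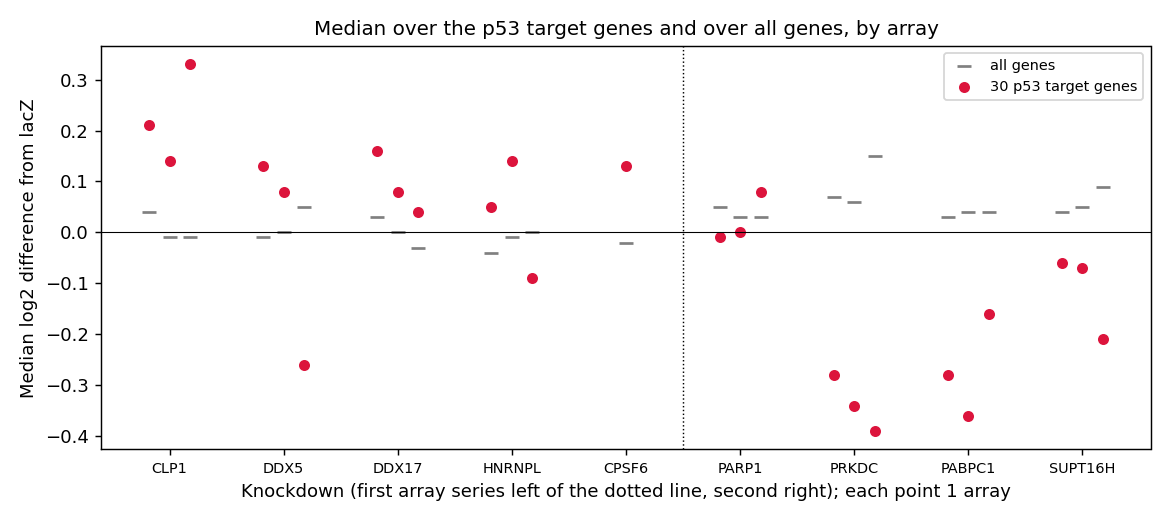
Median log2 difference from the lacZ mean of the series over the 30 p53 target genes (red points) and over all genes (grey bars), for each knockdown array, with the first series left of the dotted line. PRKDC arrays sit at −0.28 to −0.39, PARP1 arrays at −0.01 to 0.08 and CLP1 arrays at 0.14 to 0.33.

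Genes around the pathway were read from lists written with the members. Earlier results of these data were known then, so shares of these lists here and below are not independent of the data. Of 24 measured regulators of p53 none was called between PARP1 and PRKDC knockdown (median 0.22, against −0.04 over all genes). Against lacZ 9 were called in PRKDC knockdown, 7 lower and 2 higher, with a median of −0.41; these are 37.5% of the list, near the 35.7% of all genes called there. They were led by EP300 (−1.03, adjusted p = 0.00272), an acetyltransferase and coactivator of p53, and ATM (−1.30, 0.00303), the kinase that signals DNA breaks to p53, followed by E2F1 (0.77, 0.00551) and TP53BP2 (−0.73, 0.00567). In PARP1 knockdown EP300 was the 1 call (−0.81, 0.0294), 4.17% of the list beside 5.44% of all genes. In PABPC1 knockdown the calls were CHEK1 (−0.94, 0.0228), PPP1R13L (−0.54, 0.0307) and MDM4 (−1.02, 0.0395), 12.5% beside 5.76%. In SUPT16H knockdown they were EP300 (−0.90, 0.0129) and ATM (−0.90, 0.044), 8.33% beside 9.53%. None of the 24 was called in CLP1, DDX5, DDX17 or HNRNPL knockdown against lacZ, where their unadjusted p was under 0.05 for 2, 3, 3 and 3.

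Of 26 further p53 targets 3 (11.5%, beside 2.88% of all genes) were called between PARP1 and PRKDC knockdown, all higher in PARP1 knockdown: ACTA2, smooth muscle actin (1.20, SE 0.18, adjusted p = 0.00175), RPS27L, a ribosomal protein paralog (0.84, SE 0.18, 0.0232), and DRAM1, a lysosomal regulator of autophagy (0.99, SE 0.22, 0.0295). The median of this list was 0.01, against −0.04 over all genes, with 13 positive and 13 negative differences. Against lacZ this list had 5 calls in CLP1 knockdown (19.2%, beside 0.956% of all genes), 3 in DDX5 (11.5%, 0.842%), 6 in DDX17 (23.1%, 2.77%) and 5 in HNRNPL (19.2%, 1.84%). It had 3 in PARP1 (11.5%, 5.44%), 8 in PRKDC (30.8%, 35.7%), 2 in PABPC1 (7.69%, 5.76%) and 5 in SUPT16H (19.2%, 9.53%). In PRKDC knockdown its share was thus under that of all genes. The list was chosen with earlier results of these data known, so its shares are no independent evidence on p53 targets. PLK2, a kinase of the PLK3 family, was called lower in all 8 knockdowns, by −2.24 in PARP1 knockdown (adjusted p = 0.000201), −2.31 in PRKDC knockdown (0.000122) and −1.66 to −2.48 in the others. GDF15, a secreted stress cytokine, was called higher in CLP1 (1.79, 0.00137), DDX17 (1.83, 0.000724), DDX5 (1.54, 0.00777) and HNRNPL knockdown (2.07, 0.000201). The comparisons with lacZ share control arrays, so these values are not independent of one another. Cell cycle genes that p53 represses through p21 and the DREAM complex were all measured (14). None was called between PARP1 and PRKDC knockdown, where 2 had an unadjusted p under 0.05 and the median was 0.22, and against lacZ the calls were CDC25C in PRKDC knockdown (−0.60, 0.0456) and BIRC5 in SUPT16H knockdown (0.54, 0.0204), each 7.14% of the list, beside 35.7% and 9.53% of all genes.

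Some p53 targets, PMAIP1 and TNFRSF10B among them, can also be switched on through ATF4, the factor of the integrated stress response, so 14 genes of that response were read beside them. Between PARP1 and PRKDC knockdown none was called, 3 had an unadjusted p under 0.05 and the median was −0.20. Against lacZ the median was −0.43 in PARP1 knockdown, −0.24 in PRKDC knockdown, −0.69 in PABPC1 knockdown and −0.19 in SUPT16H knockdown, with 3 genes called lower in each, namely ATF4, DDIT3 and SLC3A2. These are 21.4% of the list, beside 5.44%, 35.7%, 5.76% and 9.53% of all genes in the same order, so that in PRKDC knockdown the share of the list was under that of all genes. In the first series it was 0.96 in CLP1, 0.70 in DDX5, 0.99 in DDX17 and 0.89 in HNRNPL knockdown, with 3, 2, 4 and 3 genes called (21.4%, 14.3%, 28.6% and 21.4%, beside 0.956%, 0.842%, 2.77% and 1.84% of all genes), all higher, among them NUPR1 (2.48, 2.56, 3.40 and 2.72) and ATF5. The part of this response in the values of the p53 target genes was not tested.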

How the data were processed

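HEK293 RNA was amplified with random primers and hybridized to Human Gene ST1.0 arrays. The authors made probeset intensities by RMA (background subtraction, quantile normalization, summary of probes), and the deposited intensity values (4.25 to 18486) are linear. They were taken here to log2 with no pseudocount or filter. Of 33252 probesets in 28 arrays, 19460 with exactly 1 symbol gave 18417 genes, by the brightest probeset in 769 with several. Probesets with several symbols (1754) or none (12038) were left out.

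All 28 arrays entered a single fit in limma 3.58.1 (R 4.3.3), in which each target and the array series had a coefficient and the prior variance followed the intensity (residual degrees of freedom 17, prior 8). The 8 targets with 3 hairpins were set against lacZ and against the other 3 of their series, and PARP1 against PRKDC. The p-values, two-sided, were adjusted by Benjamini and Hochberg over all genes, and a call is an adjusted p under 0.05. The lacZ array found in both series served as lacZ once in each. Members and lists were chosen with earlier results of these data known. Per-array values are given for members called in a comparison of PARP1 or PRKDC; elsewhere called members are named, or else the 2 with the smallest p, with up to 4 called genes per further list. XPC, FBXO22, BBC3, CDKN1A, EDA2R and others given in the text with arrays or values were added to show the spread. The rule also asked for 1 further gene, which is not reported here.

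Calling was tested on simulated data with 100 genes shifted by 1 and 100 by 2 log2 units: 86% and 100% were recovered for PARP1 against PRKDC, with 10 false among 196 calls, 77% and 100% for PARP1 against lacZ, with 14 among 191, and 62% and 100% for CLP1 against lacZ, with 7 among 169. Arrays give no depth, and their number limits the precision. Alternatives were another normalization or centring, a pseudocount of 16, a filter on the dimmest 30 percent of genes, probeset means, no trend, each series alone, no series term, a block for hairpin number and leaving out arrays. Response elements were searched with Python 3.11.15 in the RefSeq table of 35116 windows.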

Additional observations from a re-analysis of the deposited data

How the results depend on the processing

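Fitting each series alone changed the count of members called against lacZ to 0 for CLP1, 0 for DDX17, 12 for PABPC1 and 6 for SUPT16H (0.299%, 0.831%, 18.3% and 23.6% of all genes in the same fits), between PARP1 and PRKDC to 11 (26.1%), and against the other knockdowns to 7 for PARP1 and 6 for PRKDC (7.16% and 17.6% of all genes). With no series term, which leaves the offset between series in the first-series differences (all-gene medians 0.23 to 0.27), the counts against lacZ were 12 for CLP1, 7 for DDX5, 10 for DDX17, 7 for HNRNPL and 6 for SUPT16H (18.2%, 17.5%, 20.7%, 14.0% and 10.0% of all genes). The member medians were then 0.47 for CLP1, 0.41 for DDX5, 0.38 for DDX17, 0.42 for HNRNPL, −0.36 for PABPC1, −0.07 for PARP1, −0.43 for PRKDC and −0.24 for SUPT16H. Quantile normalization over all arrays gave 5 calls between PARP1 and PRKDC (8.33% of all genes), 1 for PABPC1 and 0 for PARP1 against the other knockdowns (0.918% and 0.885%), and medians against lacZ of −0.13 for PABPC1, −0.18 for PRKDC and 0.00 for SUPT16H. Centring gave 2 calls (3.07% of all genes) and a median of 0.21 for DDX17 against lacZ and 0 calls for PARP1 against the others (0.288%). A pseudocount of 16 left 1 call between PARP1 and PRKDC (1.13% of all genes), and leaving out dim genes left 1 (1.82%). Hairpin numbers did not pair the arrays in general: of 12 pairs of targets 1 had all 3 correlations of same-numbered deviations over 0.1 (range −0.575 to 0.833). That pair was DDX5 with HNRNPL, at 0.631, 0.232 and 0.833 for hairpins 1, 2 and 3, and why these arrays deviated together was not tested. With the hairpin number as a replicate block, 13 members were called between PARP1 and PRKDC (24.7% of all genes), and 8 for PARP1 and 6 for PRKDC against the other knockdowns (5.32% and 15.6% of all genes). Leaving out 1 array at a time gave 0 to 2 calls against lacZ for CLP1 (0.478% to 0.809% of all genes), 0 to 2 for DDX5 (0.972% to 3.40%), 0 to 1 for DDX17 (1.5% to 3.01%), 0 to 3 for PABPC1 (0.603% to 3.23%), 0 to 2 for PARP1 (1.06% to 3.30%), 2 to 10 for PRKDC (2.70% to 31.2%) and 0 to 3 for SUPT16H (0.966% to 6.46%), 0 to 1 between PARP1 and PRKDC (0.109% to 3.17%), 0 to 7 for DDX5 against the others and 0 to 0 for PARP1 against the others. The medians against lacZ were 0.04 to 0.13 for DDX17, −0.41 to −0.15 for PABPC1, −0.11 to 0.13 for PARP1, −0.36 to −0.16 for PRKDC and −0.22 to 0.02 for SUPT16H. Members with every PARP1 array above every PRKDC array numbered 13 to 16 (21.2% to 29.9% of all genes), and with every one below 1 to 4 (25.6% to 30.3%). These 2 counts under left-out arrays were chosen after seeing the data. Without lacZ replicate 2 the medians were 0.13 for PARP1, −0.16 for PRKDC and 0.02 for SUPT16H, and without lacZ replicate 3 they were −0.11 for PARP1 and −0.41 for PABPC1. Over all alternatives 148 counts of called members stayed within 1.5 times and 50 moved, and 92 medians stayed within the spread and 18 moved. Of the named genes 402 values stayed on their side of the threshold, 105 fell short of it and 1 newly passed it. No value called in the main fit changed sign. Changes of sign in uncalled values were not counted: PARP1 itself, in PRKDC knockdown against lacZ, ran from −0.20 to 0.21. The cause of these changes was not tested. Second-series comparisons with lacZ rest on 2 control arrays and first-series ones on 1, which limits small differences.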
